A study of Mus musculus with 11 samples.

Results

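The genes described here form the transcription branch of the cellular stress response that runs through the factors ATF4 and CHOP. They are Atf4, Ddit3, Trib3, Chac1, Atf3, Atf5, Cebpb, Cebpg, Ppp1r15a and Nupr1, taken by gene name for their known place in that branch, from a list drawn up when earlier results of these data were known. All 10 genes had at least 1 probe above background and were among the 15908 genes tested. mRNA was read on 11 Illumina bead arrays of mouse genes, in 1 colour, where each value is the brightness of a probe. Levels are given as log2 of the background-corrected intensity, so a difference of 1 is a doubling, and levels of different genes are not compared because probes differ in brightness.

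All samples came from mouse embryonic fibroblasts of a p53-/- TSC2-/- line, so the control cells lack both genes as well. Cells received siRNA against luciferase, a gene that mouse cells do not have, or against Crebl2, and were then kept for 12 h in 20 nM rapamycin or in ethanol, its solvent. With the luciferase siRNA there were 2 ethanol arrays, called control ethanol below, and 3 rapamycin arrays, called control rapamycin. With the Crebl2 siRNA there were 3 of each, called Crebl2 ethanol and Crebl2 rapamycin. The labels name Crebl2 as the target after 3 days of siRNA, while the series' design text writes Creb2 and 2.5 days. CREB2 is listed by RefSeq as another name of Atf4, whereas Crebl2 is a separate gene, so the levels of both are given below. Neither source says whether replicates were separate cultures, so the p-values speak to the spread among these arrays, which may be technical.

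ATF4 is a bZIP transcription factor made when kinases phosphorylate the initiation factor eIF2alpha, which lowers protein synthesis in general but favours translation of the Atf4 mRNA. ATF4 pairs with C/EBP proteins, switches on genes for amino acid supply and the gene Ddit3, and CHOP, the Ddit3 product, can join it in raising Trib3, Chac1 and Ppp1r15a. The growth kinase complex mTORC1 also raises ATF4 without such stress. TSC2 restrains mTORC1 and rapamycin inhibits it, so cells without TSC2 run with high mTORC1 activity. Arrays read mRNA only, and ATF4 protein, much of whose control is translational, was not measured.

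The composite element that ATF4 and C/EBP proteins bind was searched in the RefSeq promoter windows of the 10 genes, from 250 bases before to 50 bases after the start (build GRCm38.p6). The letters TGATGNAA, on either strand, occurred in the windows of 4 of the 10 genes, and in 3.97% of 32851 windows of all genes. The cAMP response element, searched as TGACGTCA, occurred in 1 of the 10 genes and in 1.79% of all windows, and none of the 10 genes held both. The sequences below are those with a match, shown because these genes are the ones whose levels are compared next. For Chac1 (chr2:119350992-119351241, plus strand), Atf3 (chr1:191183334-191183583, minus strand), Nupr1 (chr7:126625471-126625720, minus strand) and Ppp1r15a (chr7:45526269-45526518, minus strand) the 250 bases before the start are given, and for Trib3 (chr2:152344028-152344057, minus strand) 30 bases after it. All run 5′ to 3′ on the strand of the gene, and capitals mark the match.
Chac1: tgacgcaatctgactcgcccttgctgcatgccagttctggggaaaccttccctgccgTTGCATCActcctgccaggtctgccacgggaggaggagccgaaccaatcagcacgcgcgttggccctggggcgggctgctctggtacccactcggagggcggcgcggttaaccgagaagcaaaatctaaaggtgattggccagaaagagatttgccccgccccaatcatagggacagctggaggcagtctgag
Atf3: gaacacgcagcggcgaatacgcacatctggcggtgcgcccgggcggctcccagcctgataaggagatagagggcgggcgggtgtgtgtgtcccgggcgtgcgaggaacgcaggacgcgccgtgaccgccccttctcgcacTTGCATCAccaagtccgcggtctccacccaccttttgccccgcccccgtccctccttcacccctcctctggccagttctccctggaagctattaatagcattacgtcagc
Nupr1: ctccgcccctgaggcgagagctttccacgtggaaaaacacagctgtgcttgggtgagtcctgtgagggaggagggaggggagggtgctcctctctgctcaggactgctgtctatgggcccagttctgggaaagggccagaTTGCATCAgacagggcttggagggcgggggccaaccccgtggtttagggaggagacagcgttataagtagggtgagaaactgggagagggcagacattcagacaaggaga
Ppp1r15a: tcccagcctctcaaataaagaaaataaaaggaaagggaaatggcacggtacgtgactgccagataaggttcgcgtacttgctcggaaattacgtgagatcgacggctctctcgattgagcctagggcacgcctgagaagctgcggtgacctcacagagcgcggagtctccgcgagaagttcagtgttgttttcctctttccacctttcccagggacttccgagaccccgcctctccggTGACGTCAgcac
Trib3: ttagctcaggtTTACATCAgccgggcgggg
In Chac1 the match begins 193 bases before the start, and in both Atf3 and Nupr1 it begins 110 bases before it with the same letters, TTGCATCA. In Trib3 it begins at base 15 after the start, as TTACATCA. The match in Ppp1r15a is the cAMP response element, 12 bases before the start. A match is a run of letters, not evidence that a factor binds there.

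Across the 11 arrays the median intensity lay between 110.5 and 112.4, and 46.9% to 51.2% of probes were above background. Crebl2 ethanol replicate 3 and all 3 Crebl2 rapamycin arrays stood apart from the other 7 arrays. These 4 were split off along the first principal component, which held 69.3% of the variance, and log2 levels across genes correlated between 0.921 and 0.939 across the divide against at least 0.979 within either side. The labels give no batch, so the counts that use these arrays are also given without Crebl2 ethanol replicate 3 or with the 4 arrays as a block. Only Crebl2 ethanol has arrays on both sides, so the block is estimated from replicate 3 against the other 2 arrays of that group. Crebl2 was read by 1 probe near background, at 5.45 and 5.51 with luciferase siRNA in ethanol, 4.84, 5.87 and 5.89 in rapamycin, 4.30 to 5.61 with Crebl2 siRNA in ethanol and 4.35 to 4.89 in rapamycin. The siRNA groups overlapped in both media, and the difference did not pass in ethanol (-0.64 ± 0.40, SE; adjusted p = 0.410 by limma) or in rapamycin (-0.93 ± 0.36, SE; adjusted p = 0.0760). Without Crebl2 ethanol replicate 3 the Crebl2 difference was -0.38 in ethanol (adjusted p = 0.641) and had an adjusted p of 0.0468 in rapamycin, and with the 4 arrays as a block it was -0.12 there (adjusted p = 0.960). Of 14 fibroblast markers, 12 were above background on every array. Their summed intensity was 42010 to 43200 with luciferase siRNA in ethanol, 55100 to 55730 in rapamycin, 46020 to 62050 with Crebl2 siRNA in ethanol and 66780 to 69700 in rapamycin, and its part in the results was not tested. Above background on every array were 1 of 7 macrophage markers (Csf1r), 2 of 7 endothelial markers (Kdr and Tek) and 4 of 7 epithelial markers (Krt8, Krt18, Krt19 and Cdh1). So were 2 of 7 muscle markers (Des and Tnnt1) and 1 of 7 hepatocyte markers (Ahsg). On no array were Ptprc, Adgre1, Lyz2, Tyrobp, Vwf, Emcn, Epcam, Cldn4, Esrp1, Actc1, Ckm, Myh3, Myod1, Alb, Apoh, Fgb, Ttr and the fibroblast marker Lum. The summed epithelial intensity was 5126 to 5156 in control ethanol, 4955 to 5626 in control rapamycin, 2874 to 4565 in Crebl2 ethanol and 3736 to 4164 in Crebl2 rapamycin, and its part in the results was not tested. The macrophage sums lay between 1428 and 1566 on all arrays and the endothelial sums between 1092 and 1199. In these bulk samples fewer cells of a type and less RNA per cell cannot be told apart.

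Ddit3 encodes CHOP, a C/EBP-family factor that promotes cell death under prolonged stress. Its log2 level was 12.31 and 12.62 with luciferase siRNA in ethanol and 9.23, 9.49 and 9.06 in rapamycin. With Crebl2 siRNA it was 10.16, 10.21 and 8.83 in ethanol and 7.93, 7.89 and 7.70 in rapamycin. The control ethanol arrays were the highest and the Crebl2 rapamycin arrays the lowest, while the middle groups overlapped through Crebl2 ethanol replicate 3. On the authors' own scale, before background correction, Ddit3 went from a mean of 5731 in control ethanol to 716.8 in control rapamycin. A second Ddit3 probe gave the same order of groups, with means of 11.61, 9.26, 8.59 and 7.93 for control ethanol, Crebl2 ethanol, control rapamycin and Crebl2 rapamycin.

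Trib3 encodes a pseudokinase that is induced by ATF4 and CHOP and binds ATF4 in turn. It read 13.19 and 13.34 with luciferase siRNA in ethanol and 10.34, 10.42 and 10.43 in rapamycin. With Crebl2 siRNA it read 11.25, 11.32 and 10.83 in ethanol and 9.10, 9.24 and 9.20 in rapamycin. The 4 groups did not overlap, and their order was control ethanol, Crebl2 ethanol, control rapamycin and Crebl2 rapamycin from high to low. Chac1, which encodes an enzyme that breaks down glutathione, had the same order without overlap. Its levels were 13.48 and 13.49 in control ethanol, 12.05, 12.14 and 11.87 in Crebl2 ethanol, 11.36, 11.33 and 11.31 in control rapamycin and 10.83, 10.76 and 10.97 in Crebl2 rapamycin. The 2 further probes of Trib3 kept that order of group means, from 10.21 to 5.75 and from 9.86 to 5.47.

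Ppp1r15a encodes GADD34, the subunit that directs a phosphatase to eIF2alpha and so restores protein synthesis. It stood at 9.98 and 10.03 in control ethanol, 8.44, 8.22 and 8.16 in control rapamycin, 8.66, 8.79 and 7.82 in Crebl2 ethanol and 7.73, 7.50 and 7.79 in Crebl2 rapamycin. Control ethanol lay above all other arrays, and the control rapamycin and Crebl2 ethanol groups overlapped. Atf3, a bZIP factor that mostly represses transcription, was dim, at 7.40 and 7.57 in control ethanol, 5.68, 5.70 and 5.73 in control rapamycin, 6.24, 5.72 and 5.54 in Crebl2 ethanol and 5.25, 4.33 and 4.92 in Crebl2 rapamycin. It was above background on 10 of 11 arrays, the exception being Crebl2 rapamycin replicate 2. Its groups stood in the same relation as those of Ppp1r15a.

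**Figure D1:**
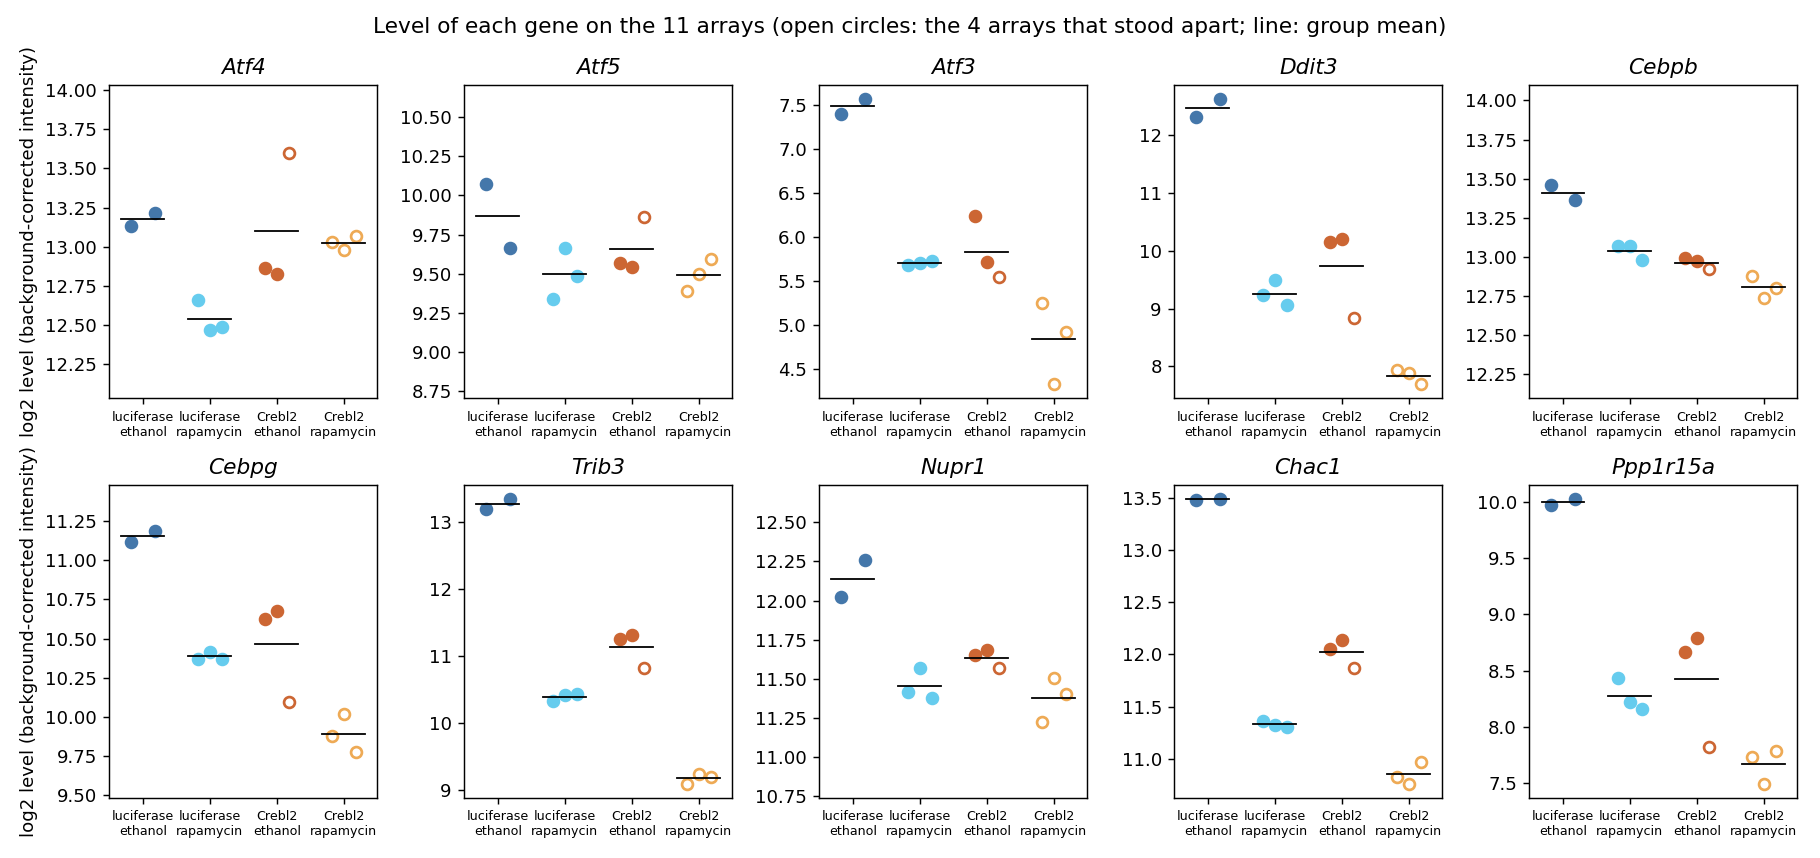
Log2 level of background-corrected intensity (y axis, own scale per gene) for each of the 10 genes on the 11 arrays, by group; each point is 1 array, the line is the group mean, and open circles are the 4 arrays that stood apart. Ddit3, Trib3, Chac1, Atf3, Ppp1r15a, Cebpb, Cebpg and Nupr1 are highest on the 2 control ethanol arrays, whereas Atf4 is highest on Crebl2 ethanol replicate 3, at 13.60.

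Over all 11 arrays Atf4 itself did not share that order. Its brighter probe gave 13.13 and 13.22 in control ethanol, 12.66, 12.47 and 12.49 in control rapamycin, 12.87, 12.83 and 13.60 in Crebl2 ethanol and 13.03, 12.98 and 13.07 in Crebl2 rapamycin. Control rapamycin was the lowest group and did not overlap with any other, and the Crebl2 ethanol arrays spanned all values of Crebl2 rapamycin. The second Atf4 probe read 9.01 and 9.36, then 8.34, 8.19 and 7.90, then 8.24, 8.64 and 10.12, then 9.45, 9.37 and 9.11 in the same order of groups. On both probes Crebl2 ethanol replicate 3 was the highest of the 11 arrays. That array also had the lowest Ddit3 level of its group, at 8.83. On the 7 arrays that lay together, the brighter Atf4 probe ran from control ethanol through Crebl2 ethanol to control rapamycin without overlap. Over these 7 arrays Atf4 correlated at 0.948 with Ddit3, 0.953 with Trib3 and 0.966 with Chac1 (Pearson r). Over all 11 arrays the values were 0.125, 0.239 and 0.351.

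Cebpb and Cebpg encode C/EBP proteins that pair with ATF4 or CHOP, and CEBPG lacks an activation domain of its own. Cebpb ranged narrowly, with 13.46 and 13.36 in control ethanol, 13.07, 13.07 and 12.98 in control rapamycin, 12.99, 12.97 and 12.92 in Crebl2 ethanol and 12.88, 12.74 and 12.80 in Crebl2 rapamycin. The brightest Cebpg probe gave 11.12 and 11.19, then 10.37, 10.42 and 10.37, then 10.63, 10.68 and 10.10, then 9.88, 10.02 and 9.78 for the same groups. For both genes the middle groups overlapped, with control ethanol above and Crebl2 rapamycin below. The other 2 Cebpg probes lay near background, and their group means spanned only 5.20 to 5.56 and 4.30 to 4.86. The dimmer of them was above background on 5 arrays, 3 of Crebl2 ethanol and 2 of Crebl2 rapamycin.

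Atf5, a bZIP factor whose translation is controlled like that of ATF4, varied little between groups. Its levels were 10.07 and 9.67 in control ethanol, 9.34, 9.66 and 9.49 in control rapamycin, 9.57, 9.54 and 9.86 in Crebl2 ethanol and 9.39, 9.50 and 9.60 in Crebl2 rapamycin. Control ethanol lay just above both rapamycin groups and overlapped with Crebl2 ethanol. Nupr1 encodes a small chromatin-associated stress protein and read 12.03 and 12.26 in control ethanol, 11.41, 11.57 and 11.38 in control rapamycin, 11.66, 11.68 and 11.57 in Crebl2 ethanol and 11.22, 11.50 and 11.40 in Crebl2 rapamycin. Control ethanol was again the highest group for Nupr1, and the rapamycin groups overlapped with each other.

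The first comparison asked what rapamycin changes in cells with the control siRNA. In this contrast 7 of the 10 genes fell and none rose. Ddit3 fell by 3.20 ± 0.36 on the log2 scale (SE), a 9.21-fold drop (adjusted p = 0.00140, limma with Benjamini-Hochberg adjustment over all genes). Trib3 was 7.29-fold lower, by -2.87 ± 0.17 (SE; adjusted p = 8.47e-05), and Chac1 4.45-fold lower, by -2.15 ± 0.14 (SE; adjusted p = 1.07e-04). In the order of all 15908 genes from the lowest difference up, Ddit3 held rank 3, Trib3 rank 4 and Chac1 rank 10. Atf3 fell 3.43-fold (adjusted p = 0.00485), with rank 22, and Ppp1r15a 3.31-fold (adjusted p = 0.00468), with rank 24. On the authors' values without background correction the Atf3 difference was -0.91 in place of -1.78, since the probe is dim.

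Smaller falls passed for Cebpg, at -0.77 ± 0.18 (SE; adjusted p = 0.0374), and Nupr1, at -0.69 ± 0.15 (SE; adjusted p = 0.0240). The Cebpg call was held in 14 of 25 alternative settings and rests on its brightest probe, the mean over its probes being -0.28. Atf4, the gene of the upstream factor, differed by -0.64 ± 0.22 (SE) and did not pass (adjusted p = 0.119). Cebpb, at -0.37 ± 0.13 (SE; adjusted p = 0.119), and Atf5, at -0.37 ± 0.18 (SE; adjusted p = 0.279), did not pass either, and the 95% interval for Atf5 ran from -0.77 to 0.025. Of all genes 3.48% passed as lower and 2.90% as higher, and the median difference was 0.01 over all genes against -1.25 over the 10.

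Crebl2 ethanol replicate 3 enters this comparison through the spread alone. Without it 9 of the 10 genes passed as lower, against 8.01% of all genes, with Atf4 (adjusted p = 0.00540) and Cebpb (adjusted p = 0.0414) added and Atf5 outside (adjusted p = 0.139). With the 7 arrays that lay together on their own, 8 passed as lower, against 6.44% of all genes, Atf4 among them (adjusted p = 0.0176). Without control ethanol replicate 1 the count was 4, against 0.666% of all genes, and without replicate 2 it was 3, against 0.515%. In those fits the control arm is 1 array, assumed to vary like the other groups.

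**Figure D2:**
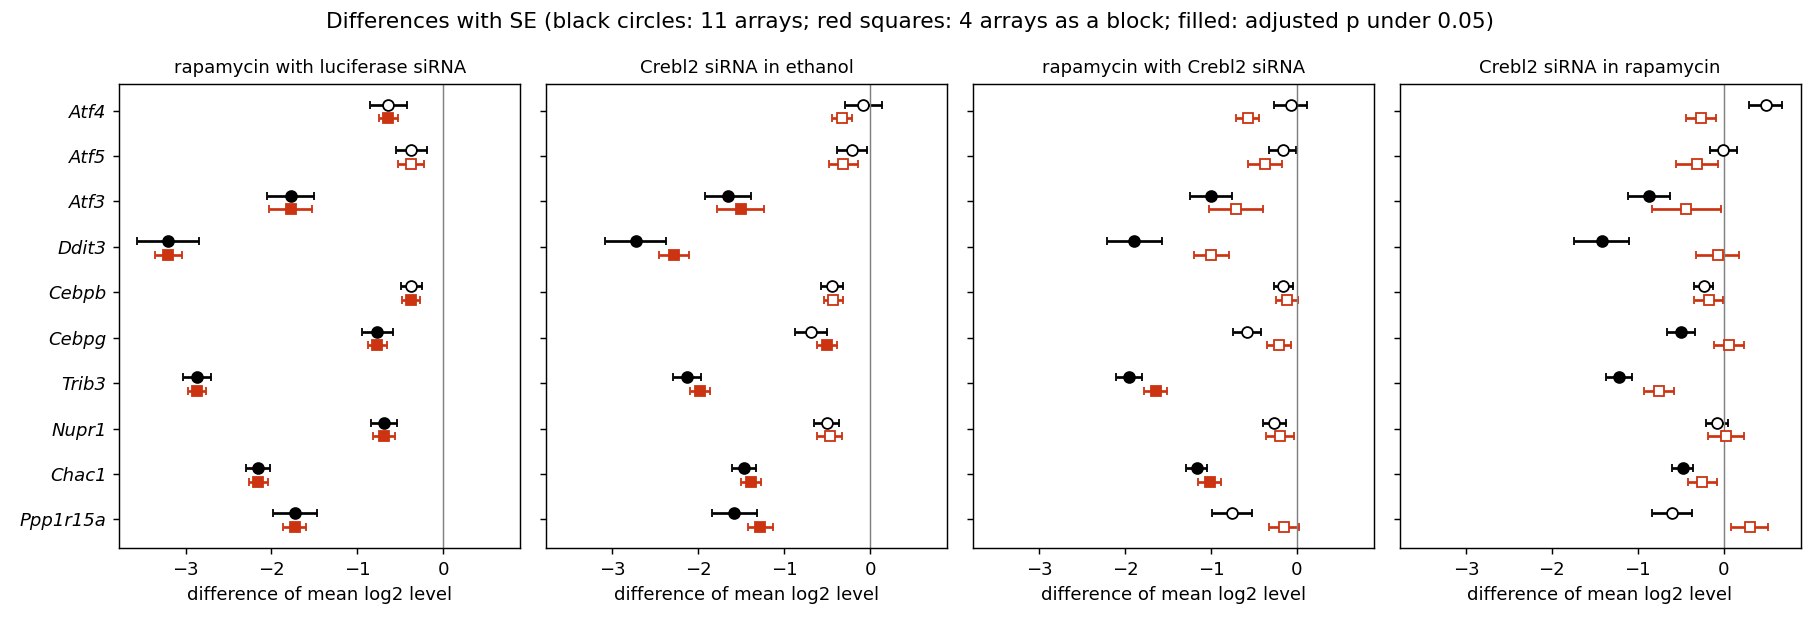
Difference of mean log2 level (x axis) with its SE for the 10 genes in 4 comparisons; black circles are the fit of all 11 arrays, red squares the fit with the 4 arrays that stood apart as a block, and filled symbols have an adjusted p under 0.05. Ddit3 and Trib3 lie farthest to the left for rapamycin with luciferase siRNA, at -3.20 and -2.87, and in the last panel no square is filled.

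The second comparison asked what the Crebl2 siRNA changes in ethanol, against the same 2 control arrays as above, so both comparisons share any deviation of those arrays. Here 5 of the 10 genes fell and none rose. Ddit3 fell by 2.73 ± 0.36 (SE; 6.63-fold; adjusted p = 0.00532), Trib3 fell by 2.13 ± 0.17 (SE; 4.38-fold; adjusted p = 9.28e-04) and Atf3 fell by 1.65 ± 0.27 (SE; 3.14-fold; adjusted p = 0.0124). Ppp1r15a fell 2.99-fold (adjusted p = 0.0124) and Chac1 2.76-fold (adjusted p = 0.00190). For the dim Atf3 probe the difference ranged from -1.85 to -0.88 over 25 alternative settings. Ddit3 held rank 2 and Trib3 rank 3 from the lowest of all 15908 genes. The share of all genes was 2.99% lower and 1.01% higher, and the median was -0.04 over all genes against -1.07 over the 10.

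The level of Atf4 differed by -0.08 ± 0.22 (SE; adjusted p = 0.872), with a 95% interval from -0.56 to 0.41. Cebpg at -0.69 ± 0.18 (SE; adjusted p = 0.0711), Cebpb at -0.45 ± 0.13 (SE; adjusted p = 0.0832), Nupr1 at -0.51 ± 0.15 (SE; adjusted p = 0.0921) and Atf5 at -0.21 ± 0.18 (SE; adjusted p = 0.542) did not pass. The 2 other Cebpg probes, near background, differed by 0.06 and 0.52 and did not pass either. When Crebl2 ethanol replicate 3 was left out, 6 genes passed as lower against 3.77% of all genes, with Cebpg added (-0.50; adjusted p = 0.0422). Ddit3 was then at -2.28, Trib3 at -1.98 and Atf4 at -0.33 (adjusted p = 0.137). Leaving out control ethanol replicate 1 or replicate 2, again with a control arm of 1 array assumed to vary like the other groups, gave 2 in both cases, against 0.170% and 0.0566% of all genes.

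The third comparison set rapamycin against ethanol in cells with the Crebl2 siRNA. In it 4 of the 10 genes fell and none rose, where 6.16% of all genes passed as lower and 2.51% as higher. Trib3 fell by 1.95 ± 0.15 (SE; 3.86-fold; adjusted p = 7.49e-04), Ddit3 by 1.89 ± 0.32 (SE; 3.72-fold; adjusted p = 0.00981) and Chac1 by 1.17 ± 0.12 (SE; 2.25-fold; adjusted p = 0.00214). Atf3 fell by 1.00 ± 0.24 (SE; adjusted p = 0.0341), and 1 of its 3 rapamycin arrays was not above background. The Atf3 call was held in 12 of 25 alternative settings, over which its difference ranged from -1.21 to -0.30. Ppp1r15a at -0.75 ± 0.23 (SE; adjusted p = 0.0690) and Cebpg at -0.58 ± 0.16 (SE; adjusted p = 0.0563) missed the threshold. Atf4 differed by -0.07 ± 0.20 (SE; adjusted p = 0.846).

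All 3 rapamycin arrays of this comparison stood apart, as did 1 of its 3 ethanol arrays. Against that 1 array alone, Ddit3 differed by -0.99, Trib3 by -1.64, Chac1 by -1.01, Atf3 by -0.71 and Atf4 by -0.57. The fit with the 4 arrays as a block gives these same differences, since it rests on that 1 ethanol array. Its p-values assume that this array varies like the other groups. With the 4 arrays as a block, Trib3 (adjusted p = 0.00550) and Chac1 (adjusted p = 0.0192) remained among the calls, 2 of the 10 against 0.691% of all genes, while Ddit3 (adjusted p = 0.0518) and Atf3 (adjusted p = 0.316) did not. Against the other 2 ethanol arrays the differences were -2.34 for Ddit3, -2.10 for Trib3 and 0.18 for Atf4, with 6 genes lower against 24.8% of all genes, but rapamycin and what set the arrays apart cannot be told apart there.

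The fourth comparison asked what the Crebl2 siRNA changes in rapamycin, where every array of 1 group stood apart and none of the other. Of the 10 genes 5 fell and none rose, but 19.1% of all genes passed as lower and 11.1% as higher. Ddit3 fell by 1.42 ± 0.32 (SE; adjusted p = 0.009996), Trib3 by 1.22 ± 0.15 (SE; adjusted p = 0.00138), Atf3 by 0.87 ± 0.24 (SE; adjusted p = 0.0220), Cebpg by 0.50 ± 0.16 (SE; adjusted p = 0.0447) and Chac1 by 0.48 ± 0.12 (SE; adjusted p = 0.0175). The second Ddit3 probe differed by -0.66 ± 0.23 (SE; adjusted p = 0.0568 over all probes) and did not pass. Over 24 alternative settings the Atf3 difference ranged from -1.08 to -0.27. The Cebpg call was held in 13 of these 24 settings. Its 2 other probes, near background, differed by -0.25 and 0.18 and did not pass. Atf4 was the one gene of the 10 with a difference above 0, at 0.49 ± 0.20 (SE; adjusted p = 0.0838), and its second probe rose by 1.17 ± 0.39 (SE; adjusted p = 0.0477 over all probes). Leaving out any 1 of the 6 rapamycin arrays left 2 or 3 of the 10 called lower, against 11.7% to 13.1% of all genes. With the 4 arrays as a block none of the 10 passed by limma, against 0.0377% of all genes called lower. In that fit 1 of the 10 had an unadjusted p under 0.05, as did 2051 of all 15908 genes. With the block the difference was -0.07 for Ddit3, -0.76 for Trib3, 0.06 for Cebpg and -0.26 for Atf4. These values rest on the block as estimated from 1 array, Crebl2 ethanol replicate 3, against the others of its group. Without Crebl2 ethanol replicate 3, 6 genes passed as lower, against 28.2% of all genes, and Atf4 as higher (adjusted p = 0.00313), but the siRNA and what set the arrays apart cannot be told apart in that fit.

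**Figure D3:**
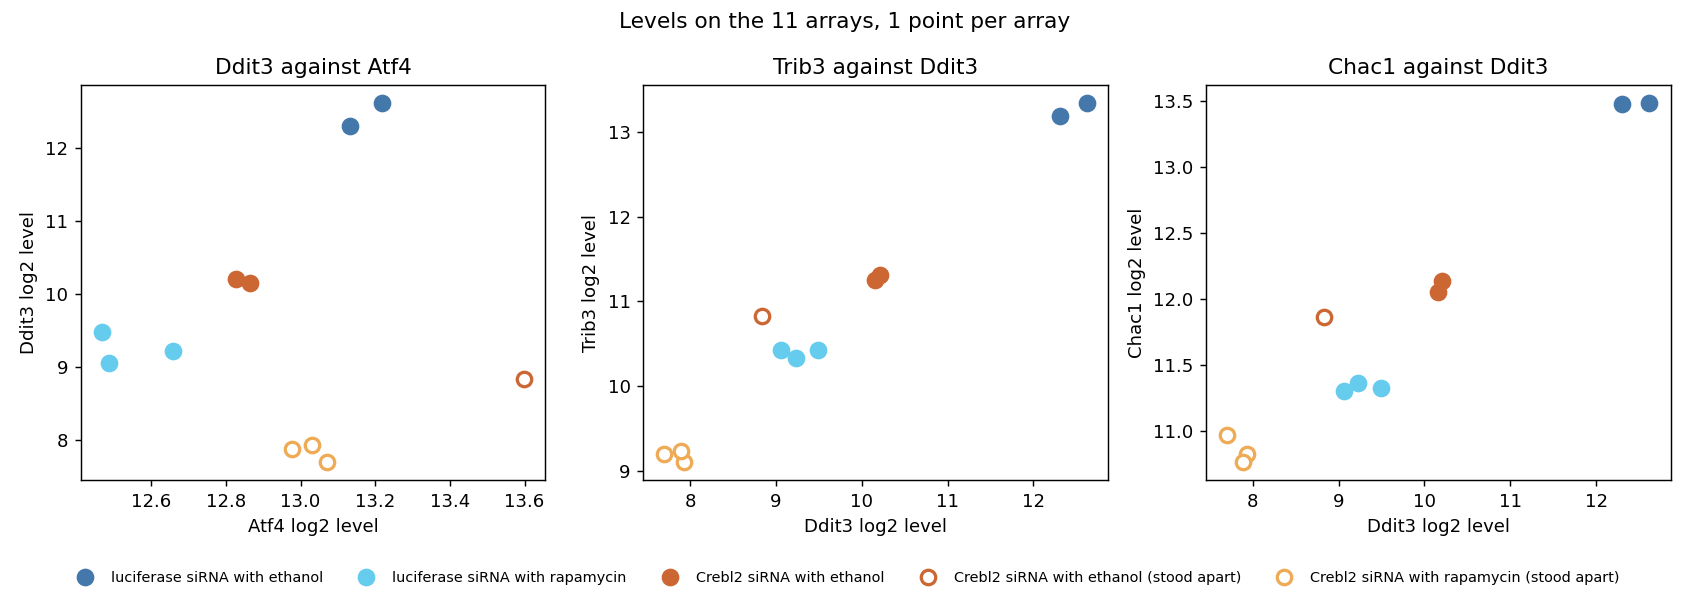
Log2 levels of pairs of genes on the 11 arrays, 1 point per array: Ddit3 (y) against Atf4 (x), Trib3 against Ddit3 and Chac1 against Ddit3, coloured by group, with open circles for the 4 arrays that stood apart. Trib3 and Chac1 are highest and lowest in the same groups as Ddit3, whereas the open circle at an Atf4 level of 13.60 has a Ddit3 level of 8.83, below the 2 other arrays of its group.

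Whether the siRNA alters the response to rapamycin is the interaction, the rapamycin difference with Crebl2 siRNA minus that with luciferase siRNA. All 10 estimates lay above 0, so each rapamycin difference was less negative with the Crebl2 siRNA, with a median of 0.67 against -0.10 over all genes. Ordered from the lowest of all 15908 estimates, Cebpg, at 0.19, held rank 11469, Atf5, at 0.21, rank 11624 and Ddit3 rank 15321. For scale, the gene Derl2, at 0.02, held rank 9482. A high reading on the 2 control ethanol arrays would lower the first 2 comparisons and raise this one. None of the 10 passed by limma, and 0.0503% of all genes passed in either direction. An unadjusted p under 0.05 was reached by 4 of the 10 and by 2168 of all 15908 genes. The estimate was 1.31 ± 0.48 (SE) for Ddit3 (adjusted p = 0.312), 0.99 ± 0.19 (SE) for Chac1 (adjusted p = 0.113), 0.98 ± 0.35 (SE) for Ppp1r15a (adjusted p = 0.302) and 0.92 ± 0.22 (SE) for Trib3 (adjusted p = 0.179). Without Crebl2 ethanol replicate 3, 5 of the 10 passed as higher against 9.63% of all genes, namely Atf4 (0.82), Ddit3 (0.86), Trib3 (0.76), Chac1 (0.91) and Ppp1r15a (0.67). All arrays that stood apart in that fit are Crebl2 rapamycin, so the interaction and what set them apart cannot be told apart there. In the fit of all 11 arrays the shift enters as well, with 3 of 3 Crebl2 rapamycin arrays apart against 1 of 3 Crebl2 ethanol arrays. A block for the 4 arrays again rests on that 1 ethanol array. With the 4 arrays as a block none passed, the lowest adjusted p being 0.0560, for Ddit3 at 2.21.

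Other genes of the pathway were counted in 6 lists from textbook knowledge, starting upstream. Of all genes 3.48% passed as lower and 2.90% as higher with rapamycin in control siRNA cells. With the siRNA in ethanol the shares were 2.99% and 1.01%. Of 15 genes for the eIF2alpha kinases, eIF2, its exchange factor and its phosphatase, 2 fell with rapamycin in control siRNA cells and none with the Crebl2 siRNA in ethanol, with medians of -0.08 and -0.01. The 2 were Eif2b3, a subunit of the exchange factor, at -1.10 ± 0.16 (SE; adjusted p = 0.00408), and Eif2s2, a subunit of eIF2, at -0.58 ± 0.14 (SE; adjusted p = 0.0431). Without Crebl2 ethanol replicate 3 this list had 3 lower with rapamycin, and none lower and 1 higher with the siRNA. In that fit 8.01% and 3.77% of all genes passed as lower. Among 19 stress and signalling targets of ATF4, 15 fell and 2 rose with rapamycin, with a median of -1.26, and 10 fell and 1 rose with the siRNA in ethanol, with a median of -0.81. Fgf21, a hormone of fasting metabolism, fell by 3.38 ± 0.34 (SE; adjusted p = 0.00107) with rapamycin and by 3.00 ± 0.34 (SE; adjusted p = 0.00436) with the siRNA. Its level was 10.21 and 10.61 on the control ethanol arrays and no higher than 7.60 on any other. Ddit4, an inhibitor of mTORC1, fell by 2.33 ± 0.27 (SE) with rapamycin and 1.48 ± 0.27 (SE) with the siRNA, Slc7a11, the cystine transporter, by 2.13 ± 0.28 (SE) and 1.20 ± 0.28 (SE), and Cth, which makes cysteine, by 2.08 ± 0.25 (SE) and 1.17 ± 0.25 (SE). The Cth probe was above background on 1 of 3 control rapamycin arrays. Without Crebl2 ethanol replicate 3 the siRNA difference was -2.82 for Fgf21, -1.28 for Ddit4, -0.92 for Slc7a11 and -1.16 for Cth, all past the threshold.

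Among 16 amino acid supply targets of ATF4, 10 fell and none rose with rapamycin, with a median of -0.90, and 6 fell and none rose with the siRNA in ethanol, with a median of -0.62, the same counts as without Crebl2 ethanol replicate 3. The arginine and lysine transporter gene Slc7a3 differed by -1.85 with rapamycin and -1.42 with the siRNA, the mitochondrial folate enzyme gene Mthfd2 by -1.55 and -1.02, and the neutral amino acid transporter gene Slc1a4 by -1.44 and -1.04, all past the threshold. Shmt2, which moves a carbon from serine to folate in mitochondria, fell by 1.63 ± 0.20 (SE; adjusted p = 0.00219) with rapamycin and differed by -0.26 ± 0.20 (SE; adjusted p = 0.506) with the siRNA, or by -0.08 without Crebl2 ethanol replicate 3. In cells with the Crebl2 siRNA, rapamycin lowered 7 of the 19 stress targets, 1 being higher, and 9 of the 16 supply targets, where 6.16% of all genes passed as lower. In rapamycin the siRNA lowered 5 and 8 of them, with 1 and 2 higher, where 19.1% of all genes passed as lower and 11.1% as higher. With the 4 arrays as a block 0 of either list passed in that comparison by limma, against 0.0377% of all genes called lower. With the block, rapamycin in Crebl2 siRNA cells lowered 1 stress target and 2 supply targets, against 0.691% of all genes.

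Of 8 reported targets of CHOP, 1 fell and none rose with rapamycin in control siRNA cells, and likewise with the siRNA in ethanol. Of all genes 3.48% passed as lower and 2.90% as higher in the former, and 2.99% and 1.01% in the latter. They were Wars, the tryptophanyl-tRNA synthetase gene, at -1.16 ± 0.26 (SE; adjusted p = 0.0278) with rapamycin, and Bbc3, a death-promoting BCL2-family gene, at -1.02 ± 0.23 (SE; adjusted p = 0.0387) with the siRNA. Bbc3 is named as the 1 gene of that count. Of 32 other bZIP genes 5 fell and 1 rose with rapamycin, with a median of -0.14. Batf3 differed by -1.45 ± 0.27 (SE), Fos by -1.14 ± 0.27 (SE), Nfe2l1, a regulator of proteasome genes, by -0.91 ± 0.13 (SE) and Fosl2 by 1.01 ± 0.15 (SE). With the siRNA in ethanol 5 of the 32 fell, with a median of -0.32, and Fos was at -1.71 ± 0.27 (SE). Of 23 genes for chaperones and degradation in the endoplasmic reticulum, which the ATF6 and XBP1 arms of the stress response control, 2 fell and 1 rose with rapamycin and none passed with the siRNA in ethanol. There Hspa5 differed by 2.32 ± 1.17 (SE) and Manf by 1.65 ± 1.11 (SE), or by 0.72 and 0.12 without Crebl2 ethanol replicate 3. With rapamycin Hyou1 differed by -0.59 ± 0.15 (SE), Dnajb11 by -0.72 ± 0.17 (SE) and Derl3, near background in control ethanol, by 2.15 ± 0.16 (SE). In Crebl2 siRNA cells rapamycin lowered 5 of the 23, against 6.16% of all genes, and raised none. With the 4 arrays as a block 0 of the 23 passed, where 0.691% of all genes passed as lower. Without Crebl2 ethanol replicate 3 rapamycin lowered 8 and raised 6, where 24.8% of all genes passed as lower and 2189 genes as higher. Hspa5 then differed by 4.49 and Manf by 4.09, against 2.90 and 2.57 with all arrays. Rapamycin and what set the arrays apart cannot be told apart in that fit. In rapamycin the siRNA lowered 9 and raised 4, where 19.1% of all genes passed as lower and 11.1% as higher. Hspa5 there differed by 5.47 ± 1.04 (SE) and Manf by 4.37 ± 0.99 (SE), both past the threshold. With the 4 arrays as a block they differed by 0.68 and -0.20, and 1 of the 23 passed as lower, against 0.0377% of all genes. Without Crebl2 ethanol replicate 3, 8.01% of all genes passed as lower with rapamycin and 3.77% with the siRNA in ethanol. Of the 15908 genes 1200 and 448 passed as higher. The CHOP targets then had 2 lower and 1 higher with rapamycin and 3 lower with the siRNA. The other bZIP genes had 6 lower and 3 higher, then 7 lower and 1 higher, and the chaperone list 3 lower and 1 higher, then 2 lower. In that fit the stress targets of ATF4 had 16 lower and 2 higher with rapamycin and 11 lower and 1 higher with the siRNA.

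**Figure D4:**
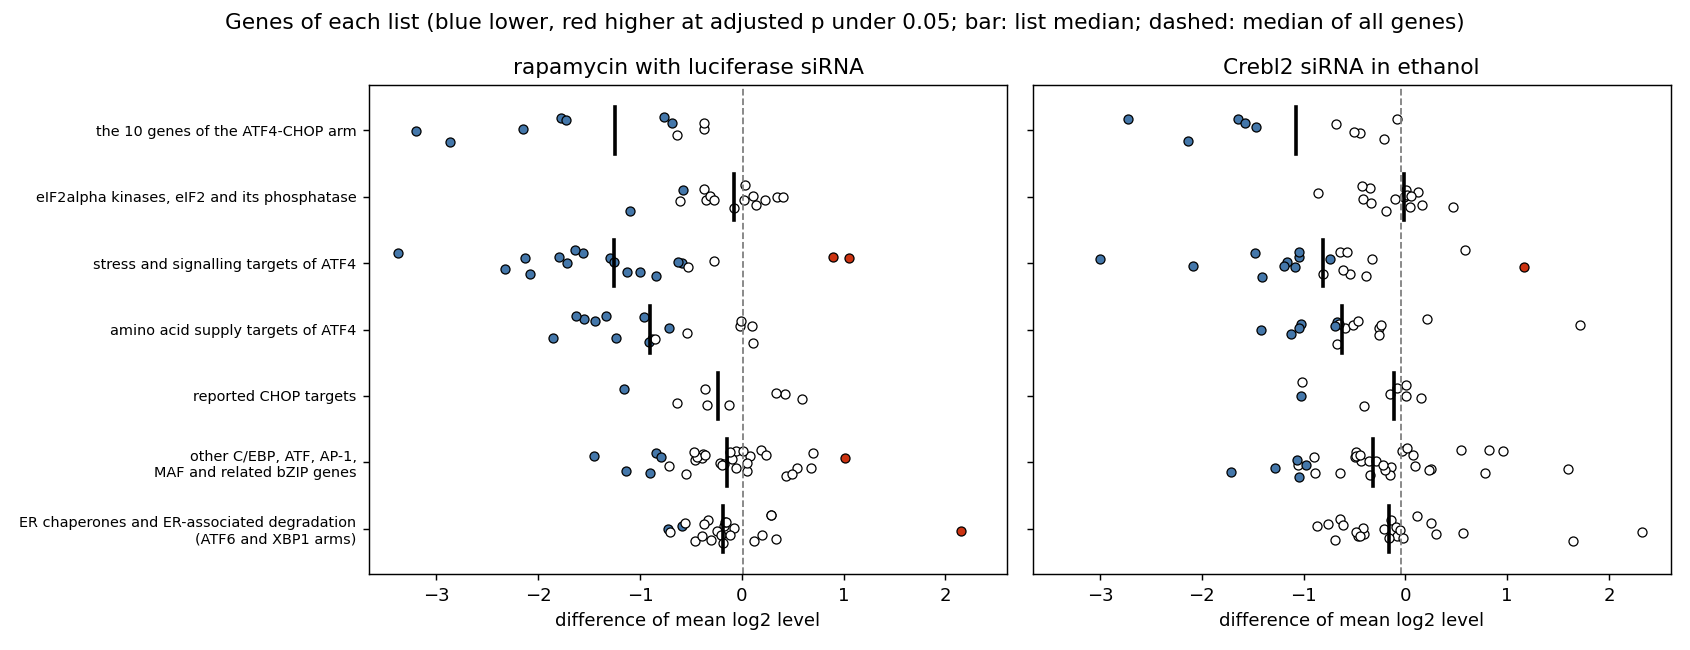
Difference of mean log2 level (x axis) for the 10 genes and for 6 lists of pathway genes, for rapamycin with luciferase siRNA and for Crebl2 siRNA in ethanol; each point is a gene, blue is lower and red higher at an adjusted p under 0.05, the bar is the list median and the dashed line the median of all genes. The 10 genes have medians of -1.25 and -1.07, the stress targets of ATF4 medians of -1.26 and -0.81, and the chaperone list medians of -0.19 and -0.16.

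Outside the 10 genes, the levels most like those of Ddit3 over the 11 arrays belonged to Dgat2, which encodes an enzyme of triglyceride synthesis (Pearson r = 0.993), Dus4l (r = 0.989), Lrrfip2 (r = 0.986), Grasp (r = 0.986) and Lonp1, a mitochondrial protease gene (r = 0.984). Over the 7 arrays that lay together these were 0.989, 0.987, 0.979, 0.984 and 0.987. Dgat2 differed by -1.49 with rapamycin and -1.18 with the siRNA in ethanol. Most like Atf4 were Msantd3 (r = 0.966, and 0.965 over the 7), Uqcc2, an assembly factor of respiratory complex III (0.931 and 0.859), Prps1, which makes the precursor of nucleotide synthesis (0.923 and 0.925), the kinase gene Sgk3 (0.915 and 0.942) and the DNA methyltransferase gene Dnmt1 (0.914 and 0.849). These values describe arrays that share their groups and the same shift of 4 arrays, and were chosen as the highest among all genes.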

How the data were processed

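The data were 11 single-colour Illumina mouse bead arrays of total RNA, labelled with biotin and Cy3-streptavidin per the labels' protocols, in 4 groups taken from the labels. Per the file headers, the authors' normalized table holds an intensity on a linear scale for each of 46237 probes on each array, with a detection p-value deposited beside it. Of the normalization method, scanner software and background step the sources used here say nothing. The deposited series matrix held the same intensities, with 0 values different. In the non-normalized table all but 32 of the 46237 lines carried the identifier of another probe. Joined by identifier it correlated between -0.00964 and -0.00628 with the normalized table, and it was used only as an alternative, after its lines were matched by rank.

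Background correction and quantile normalization used neqc of limma 3.58.1 (offset 16) in R 4.3.3 (version 1.17.8 of the data.table package), and took negative-control parameters from the deposited detection p-values. These did not follow intensity strictly, which limits that step for dim probes. Kept were 28936 probes, those with a detection p-value under 0.05 on 2 or more arrays. Names came from the platform annotation: 35784 probes had 1 symbol, 0 had several and 10453 had none, and 0 symbols changed through RefSeq. The probe with the highest mean stood for its gene, which gave 15908 genes. All 4 groups entered 1 lmFit and eBayes fit without a block, with degrees of freedom of 7 (residual) and 3.23 (prior), adjusted by Benjamini-Hochberg over all genes, threshold 0.05. Differences are of mean log2 levels.

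Named were the 10 genes, up to 4 genes per list with the largest difference past the threshold for rapamycin with luciferase siRNA, Crebl2, and the 5 genes most like Ddit3 and Atf4. Derl2 was named besides for the scale of the interaction, and Hspa5 and Manf for their differences with the siRNA. The members and lists were chosen with earlier results of these data known. Replicate numbers were checked as pairs: 0 of 15 pairs of same-numbered arrays had deviations correlated over 0.1 (-0.070 to 0.091). This gave no sign that they pair the samples, which so few arrays per group cannot exclude. Alternatives were other background, scaling, filter and probe rules, a variance trend, array weights, blocks, subsets of arrays and leaving out each array.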

Additional observations from a re-analysis of the deposited data

How the results depend on the processing

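Genes are counted at an adjusted p under 0.05 by limma. For rapamycin with luciferase siRNA, 1014 genes passed, and 1605 with log2 of the authors' values, 2607 with array weights, 2474 with the 4 arrays as a block and 1989 with only the other 7. For Crebl2 siRNA in ethanol 636 passed, and 1176, 1652 and 1048 in the first 3 of these, 958 with an offset of 50 and 0 with only the 2 groups fitted (1900 at an unadjusted p under 0.05). For rapamycin with Crebl2 siRNA 1379 passed, and 2164 with a variance trend, 6667 with weights, 210 with the block, and 0 with only its 2 groups (3444 unadjusted) or only the 4 arrays (2233 unadjusted), of which 1 is ethanol. On the authors' values this comparison had 917 genes higher and 1051 lower, against 399 and 980. For the siRNA in rapamycin 4803 passed, 7957 probes when each probe was tested, and 7 with the block. For the interaction 8 passed, 61 on the authors' values, 5 on the matched non-normalized table, 45 with the offset, 20 with no filter, 0 with every probe, 37 with the trend, 3769 with weights and 1 with the block.

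Of the 10 genes, the 5 lower for the siRNA in ethanol became 8 on the authors' values, with the offset, trend or weights, and 0 with only its groups (8 unadjusted). The 4 for rapamycin with Crebl2 siRNA became 2 with the block and 0 with only its groups (6 unadjusted) or only the 4 arrays (4 unadjusted). The 5 for the siRNA in rapamycin became 0 with the block. The 0 of the interaction became 1 on the authors' values, with the offset or the trend, and 5 with weights. Leaving out 1 array gave, in the order above, 144 to 2474, 10 to 1048, 270 to 6136, 3135 to 6725 and 0 to 3616 genes, and 3 to 9, 2 to 6, 3 to 6, 2 to 7 and 0 to 5 of the 10. Without a luciferase ethanol array that arm is 1 array, assumed to vary like the other groups. The highest counts came without replicate 3 of Crebl2 siRNA with ethanol, and in the first 2 comparisons the lowest without replicate 2 of luciferase siRNA with ethanol (for the 10 genes in the second, also without replicate 1).

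With the replicate number as a block, which the check of pairing did not support, counts were 579, 200, 1048, 4538 and 0 genes, and 6, 5, 4, 5 and 0 of the 10, and 5 of 11 arrays lay closest to their own number.

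Signs turned for Atf4 in the second comparison without Crebl2 ethanol replicate 1 or 2 (leaving out 1 array gave -0.33 to 0.057), in the third with the mean of probes (0.12), weights (0.16) or without Crebl2 ethanol replicate 3 (-0.21 to 0.18), and in the fourth with the block (-0.26). In the fourth they also turned for Atf5 on the authors' values (0.0028), without luciferase rapamycin replicate 2 or Crebl2 rapamycin replicate 1 (-0.080 to 0.082), and with the block for Cebpg (0.062), Ppp1r15a (0.30) and Nupr1 (0.024). The interaction of Cebpg was -0.16 with the mean of probes. The cause of these moves was not tested. The Atf3 and Crebl2 probes lie near background, which limits what their levels show.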
